A study of Mus musculus with 10 samples.

Results

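The wells described here are 281 high-scoring wells of the Smart-seq plates, chosen to hold lymphatic endothelial cells (LECs) of lymphatic valves, among 2664 wells that passed a depth filter and 3048 wells on 8 plates. A well passed with at least 50000 counts on genes and at least 1000 detected genes. Each passing well was scored by the mean of log2(CPM + 1), where CPM is a gene's counts scaled to 1000000 gene counts of that well, over 6 genes: Gdf10, Gjd3, Slc41a1, Neo1, Sbspon, and Fibin. The wells above the 90th percentile of the score in the pooled Cre-negative wells, a score of 6.18, were taken. The rule therefore fixed that 130 of the 1296 Cre-negative wells were members, and the levels of the 6 genes in the members are no finding.

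All wells came from ear skin of mice whose Tie1 gene, or Tie1 and Tie2 (Tek) genes, carried loxP sites, and all pups received 62.5 μg of 4-hydroxytamoxifen (4-OHT) from P1 to P5, the Cre-negative controls included. The 4 genotypes, each on 2 plates, were Tie1 fl/fl and Tie1 Tie2 fl/fl (Cre-negative controls) and Tie1 iΔLEC and Tie1 Tie2 iΔLEC, in which Prox1-CreERT2 deleted the genes (Tie1-deleted and Tie1/-2–deleted). Cre was driven by the Prox1 promoter, so deletion was directed to cells that express Prox1, and a cell that escaped recombination remained on the plate. The labels gave P1 to P5 as the age and the study described analysis at P28. Live cells positive for CD31 and podoplanin and negative for CD45, CD11b, and TER-119 were sorted, 1 to a well. Plate 1 of Tie1 fl/fl and plate 1 of Tie1 iΔLEC were labelled female and the other 6 plates male, and the number of mice per plate was not given in the sources used here, so that the spread between the 2 plates of a genotype may be partly technical and sex cannot be told apart from the plate.

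Lymphatic valves are leaflets of endothelium on a matrix core that keep lymph from flowing back in collecting vessels. LECs that form them are known for high Prox1 and Foxc2 together with Gata2 and Nfatc1, for the tight junction protein claudin-11 (Cldn11), and for integrin α9 binding to fibronectin in the leaflet matrix, and oscillating flow is known to induce several of these genes. Tie1 and Tie2 are endothelial receptors of the angiopoietins and signal through PI3K, which keeps the transcription factor FoxO1 out of the nucleus. Angpt2, the ligand Ang2, is a known FoxO1 target, and the comparison asks what valve LECs express when the receptors are lost.

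The 8 plates held between 71249844 and 110741537 gene counts, and the high-scoring wells had median gene counts per well between 173346 and 375274.5. Their median number of detected genes ranged from 3585.5 to 7857 per plate, and that of the other wells from 3777 to 7421.5. The 4 plates deposited with gene symbols, 1 of each genotype, had more detected genes per well than the 4 deposited with Ensembl identifiers. In the high-scoring wells, 6 of the 6 score genes were detected in 139 wells, 5 in 108 wells, and 4 in 34 wells, whereas 216 of the other 2383 wells (9.06%) had counts of all 6. Just inside the threshold, wells scored 6.185 to 6.198 and held 4.65 to 1712 CPM of Cldn11, and just outside it they scored 6.168 to 6.183 and held 308 to 1823 CPM, so the threshold cut through a continuous range.

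Cldn11 was not in the score and was used to check the label. The study named it as a valve marker from these same cells, together with 4 of the score genes, so it is not an independent check. In the summed counts of the high-scoring wells Cldn11 (chr3:31149920-31164324, plus strand, GRCm38) stood at 1619 and 2428 CPM in Tie1 fl/fl, 1831 and 1860.0 CPM in Tie1 iΔLEC, 2236 and 1921 CPM in Tie1 Tie2 fl/fl, and 489.9 and 428 CPM in Tie1 Tie2 iΔLEC. In the other wells of the same plates it stood at 31.6 to 197 CPM. The high-scoring wells were thus above the other wells on 8 of 8 plates. In the control and the Tie1-deleted plates summed Cldn11 went with the label valve LEC, without establishing it for each well. In the Tie1/-2–deleted plates Cldn11 bore out the label less well. There, 13 of 26 and 6 of 20 high-scoring wells had 100 CPM or more of it, compared with 27 of 28 and 42 of 45 in Tie1 Tie2 fl/fl. The 6 score genes made up the score differently there. Since the rule chose the wells on the mean of these genes, their levels are a description and no evidence on the label. In the high-scoring wells of Tie1 Tie2 fl/fl and of Tie1 Tie2 iΔLEC, the connexin Gjd3 stood at 734 and 773 and 432 and 220.1 CPM, the magnesium transporter Slc41a1 at 2420 and 4231 and 1172 and 1221 CPM, and Sbspon at 511 and 430 and 70.2 and 172 CPM, whereas Neo1 stood at 701 and 1026 and 1125 and 1416 CPM. In the other wells Neo1 stood at 40.6 and 53.2 CPM in Tie1 Tie2 fl/fl and 364 and 323 CPM in Tie1 Tie2 iΔLEC, and Fibin at 26.5 and 10.5 and 156 and 139 CPM, so that both score genes had higher values in the other wells of the Tie1/-2–deleted plates. Because Cldn11 bore out the label less well in the Tie1/-2–deleted plates, the wells of all genotypes are called high-scoring wells below.

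The share of high-scoring wells differed between plates of the same genotype by amounts similar to those between genotypes. In Tie1 fl/fl, 35 of 271 wells (12.9%, exact 95% interval 9.16% to 17.5%) and 22 of 340 wells (6.47%, 4.10% to 9.63%) were high-scoring. In Tie1 iΔLEC, 60 of 323 wells (18.6%, 14.5% to 23.3%) and 45 of 344 wells (13.1%, 9.70% to 17.1%) were. In Tie1 Tie2 fl/fl, 28 of 352 wells (7.95%, 5.35% to 11.3%) and 45 of 333 wells (13.5%, 10.0% to 17.7%) were, and in Tie1 Tie2 iΔLEC 26 of 348 wells (7.47%, 4.94% to 10.8%) and 20 of 353 wells (5.67%, 3.49% to 8.61%).

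The mean share was 9.69% ± 4.56 (SD, n = 2) in Tie1 fl/fl and 15.8% ± 3.89 in Tie1 iΔLEC, with the lower Tie1-deleted plate at 13.1% and the higher control plate at 12.9%. The mean was 10.7% ± 3.93 in Tie1 Tie2 fl/fl and 6.57% ± 1.28 in Tie1 Tie2 iΔLEC, and the higher deleted plate lay below the lower control plate. Within a table layout the shares were 12.9% and 18.6% with gene symbols and 6.47% and 13.1% with Ensembl identifiers for Tie1 fl/fl and Tie1 iΔLEC, and 13.5% and 5.67%, and 7.95% and 7.47%, for Tie1 Tie2 fl/fl and for Tie1 Tie2 iΔLEC. The shares rest on the score genes and were not tested, and the intervals cover counting error only. The Tie1/-2 difference was -0.10 percentage points when the 80th percentile set the threshold.

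**Figure D1:**
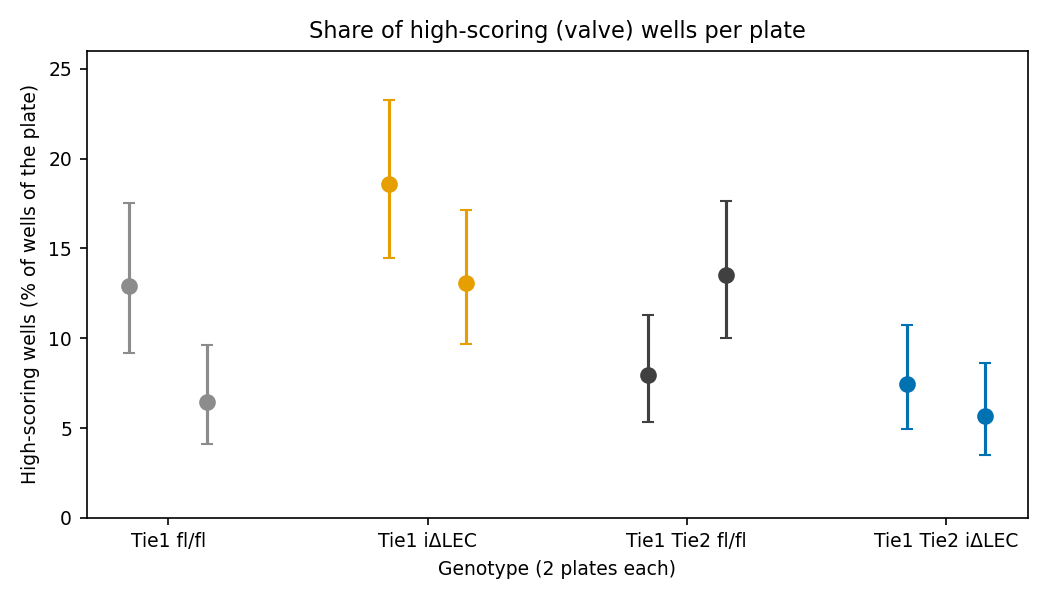
Share of passing wells that were high-scoring, in percent, for each of the 8 plates by genotype, with exact 95% binomial intervals as bars. The plates of a genotype lie apart (6.47% and 12.9% in Tie1 fl/fl), and those of Tie1 Tie2 iΔLEC, 5.67% and 7.47%, are the lowest apart from plate 2 of Tie1 fl/fl.

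Genes that the score did not use were then compared between the high-scoring wells and the other wells of each plate, as the log2 ratio of CPM from summed counts with 1 CPM added. Because the wells were chosen on expression, these ratios are a description with no test. Among 10150 genes, those that averaged 10 CPM or more, the median ratio was -0.08, and 297 genes (2.93%) were higher and 609 genes (6.0%) lower in the high-scoring wells on 8 of 8 plates. Of the 11 transcription factors listed for valves, 5 were higher on 8 of 8 plates and 0 were lower, with a median of 0.78. Hand1 had no counts in high-scoring wells.

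Gata2, the GATA factor that maintains valves, stood at 859 and 1163 CPM in Tie1 fl/fl, 665 and 808 CPM in Tie1 iΔLEC, 1061 and 853 CPM in Tie1 Tie2 fl/fl, and 355 and 255 CPM in Tie1 Tie2 iΔLEC in high-scoring wells and at 95.6 to 294 CPM in the other wells, a median log2 ratio of 1.60. Foxc2, the forkhead factor mutated in lymphedema-distichiasis, stood at 566 and 816 CPM in Tie1 fl/fl, 832 and 742 CPM in Tie1 iΔLEC, 624 and 489 CPM in Tie1 Tie2 fl/fl, and 321 and 112 CPM in Tie1 Tie2 iΔLEC, against 28.1 to 349 CPM in the other wells, a median log2 ratio of 1.18. Both were higher on every plate and both were lowest in the Tie1/-2–deleted plates. Prox1, the factor that sets LEC identity, had a median log2 ratio of 1.03 with 1039.6 to 1961 CPM in the high-scoring wells. Nfatc1, the calcineurin-dependent factor, had 0.78, and the flow-induced factor Klf2 had 1.25, both higher on 8 of 8 plates. Klf4, the related flow-induced factor, was higher on 7 of 8 plates (median 1.05), and Foxo1 was at a like level in both classes (median 0.10).

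Among the 8 listed valve matrix and integrin genes, 1 was higher and 2 were lower on 8 of 8 plates, with a median of 0.32. The laminin subunit Lama5 had 86.6 to 531 CPM in high-scoring wells of the control plates and 24.1 to 49.4 CPM in their other wells, but 40.4 and 21 CPM in the Tie1/-2–deleted plates, against 31.1 and 23.9 CPM in other wells there. Fibronectin (Fn1), the ligand of integrin α9, was higher on 6 of 8 plates and is taken up below. Itga9, the integrin α9 subunit, was higher on 7 of 8 plates with a median log2 ratio of 0.48. Emilin1, an elastic fiber glycoprotein found in valve leaflets, was the gene higher on 8 of 8 plates (0.50), and the matrix protein tenascin C (Tnc) and the integrin subunit Itgb1 were the genes lower on 8 of 8.

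Of the 11 junction and polarity genes, Cldn11 alone was higher on 8 of 8 plates, and 3 genes, among them the connexin Gja1 and the protocadherin Fat4, were lower on 8 of 8, with a list median of -0.16. Gja1 stood at 54.6 to 421 CPM in high-scoring and 269 to 483 CPM in other wells, whereas the connexin Gja4 had a median log2 ratio of 0.21 with overlapping ranges. Of the 6 guidance and ephrin genes, the semaphorin Sema3a was higher on 8 of 8 plates (median 1.46). Of 10 BMP and ALK1 pathway genes none was higher and 2, the ligand Bmp4 and the coreceptor Eng, were lower on 8 of 8. Of 7 Notch pathway genes, 0 were higher and 1 lower. Neo1, a score gene, encodes neogenin, and among its ligands and coreceptors Ntn1 was lower on 8 of 8 plates (-1.40) and Unc5b was higher on 6 of 8 (0.93).

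**Figure D2:**
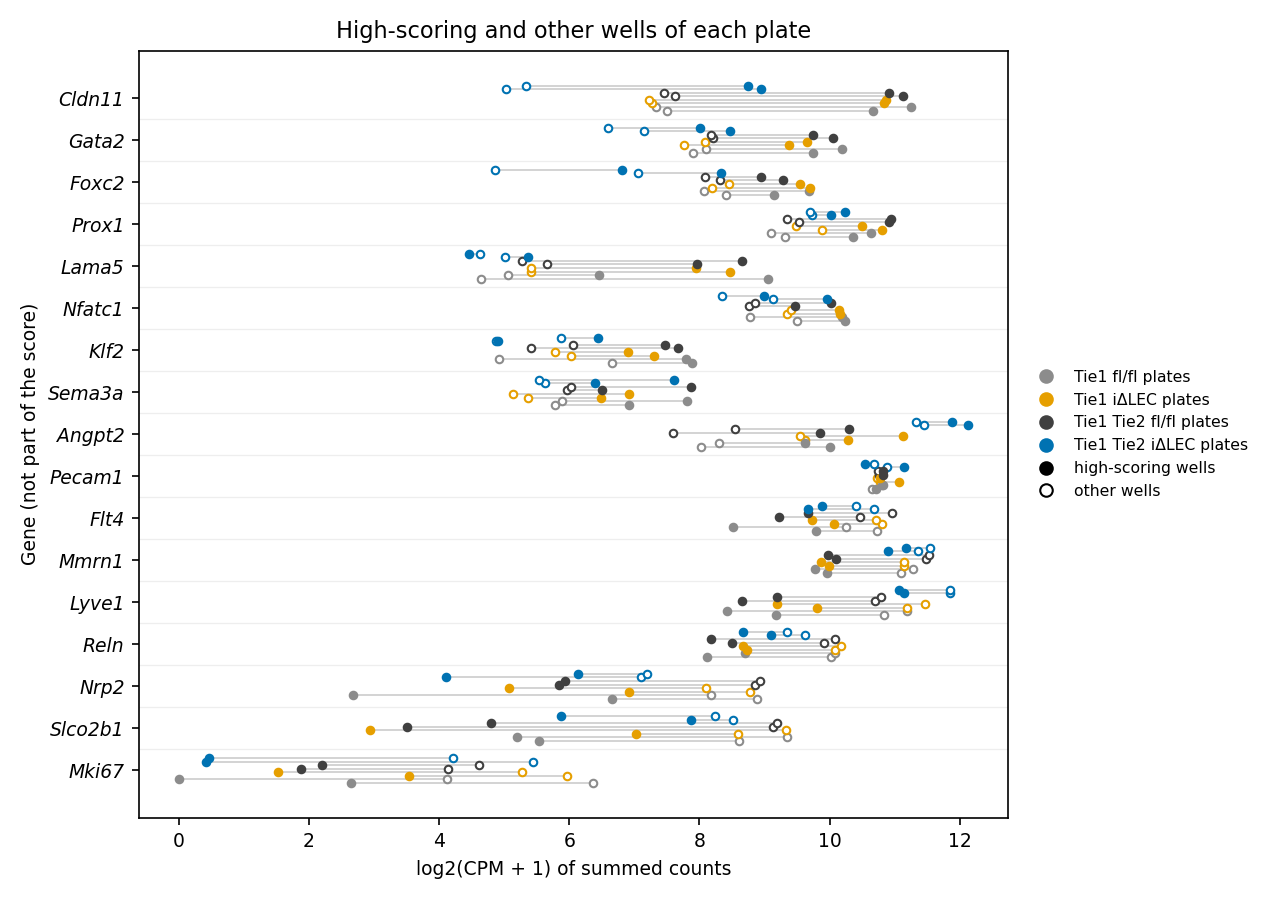
Level of selected genes outside the score, as log2(CPM + 1) of summed counts, in the high-scoring (filled) and the other wells (open) of each of the 8 plates, joined by a line. Cldn11 and Gata2 were higher in the high-scoring wells of all 8 plates and Lyve1 was lower in all 8, and the Tie1/-2–deleted plates had the lowest Cldn11 (428 and 489.9 CPM) among the high-scoring wells.

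Several LEC markers, those of lymphatic capillaries among them, had lower levels in the high-scoring wells. Of 11 pan-LEC genes, 1 (Prox1) was higher and 5 were lower on 8 of 8 plates, with a median of -0.66. Pecam1 (CD31), used in the sort, stood at 1493 to 2263 CPM in high-scoring and 1612 to 1879.6 CPM in other wells. Flt4 (VEGFR3), the VEGF-C receptor, stood at 884 and 363 CPM in Tie1 fl/fl, 1069 and 848 CPM in Tie1 iΔLEC, 597 and 815 CPM in Tie1 Tie2 fl/fl, and 811 and 944 CPM in Tie1 Tie2 iΔLEC, against 1215 to 1984 CPM in the other wells. Its median log2 ratio was -1.0, and that of its coreceptor Nrp2 was -3.00. The multimerin Mmrn1 had -1.21, and Thy1 was likewise lower on 8 of 8.

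Of 7 capillary LEC genes, 6 were lower on 8 of 8 plates and 0 were higher, with a median of -1.52. The hyaluronan receptor Lyve1 stood at 578 and 342 CPM in Tie1 fl/fl, 892 and 581 CPM in Tie1 iΔLEC, 402 and 586 CPM in Tie1 Tie2 fl/fl, and 2264 and 2143 CPM in Tie1 Tie2 iΔLEC, and at 1653 to 3669 CPM in other wells (median log2 ratio -1.62). Reln had -1.39, the mechanosensitive channel Piezo2 -1.46, and the transporter Slco2b1 -3.61. Of 7 collecting vessel genes, 2 (Mmrn2, -3.76, and Plvap, -0.74) were lower on 8 of 8 and 0 were higher, with a median of -0.74. The capillary and collecting vessel markers were named by the study on these samples, so these counts are not independent evidence.

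Proliferation genes had lower summed counts in the high-scoring wells. Mki67 stood at 0 to 10.7 CPM in the high-scoring wells and 16.4 to 81.8 CPM in the other wells, 3 of 6 proliferation genes were lower on 8 of 8 plates, and the list median was -2.61. The size and the direction depended on the summary. As a mean of log2(CPM + 1) over wells the difference of Mki67 was -0.35. For the 6 genes summed, the median high-scoring well exceeded the median other well on both Tie1 iΔLEC plates (26.3 against 22.8 and 2.09 against 0 CPM). It did so too on plate 2 of Tie1 fl/fl (0.64 against 0 CPM) and of Tie1 Tie2 fl/fl (6.00 against 2.93 CPM). It was lower on plate 1 of Tie1 fl/fl (17.5 against 27.3 CPM) and of Tie1 Tie2 fl/fl (1.13 against 3.06 CPM). On the Tie1 Tie2 iΔLEC plates the medians were 0 against 0 and 0 against 3.06 CPM. The 3 listed genes Mest, Ptx3, and Mrc1 were all lower on 8 of 8 plates (median -2.64), and the thrombospondin Thbs1 had -2.10. Of 6 interferon genes, 1 was lower on 8 of 8 (median -1.97).

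At least 2-fold higher as a median, and higher on 8 of 8 plates, were 117 genes (1.15% of 10150), and 330 genes (3.25%) were at least 2-fold lower. The 25 with the highest median ratios outside the score are named below by known function. No list fixed these groups, and none was tested for enrichment. Tied to the cytoskeleton are the RhoA exchange factor Net1 (3.39), the neuron navigators Nav1 (2.83) and Nav2 (3.20), the rhophilin Rhpn1 (2.69), the formin Fhdc1 (2.32), the GTPase Gem (2.25), Cttnbp2 (3.62), and Crocc (2.95). Net1 stood at 861 and 1620.2 CPM in Tie1 fl/fl, 628 and 966 CPM in Tie1 iΔLEC, 1046 and 1109 CPM in Tie1 Tie2 fl/fl, and 129 and 84.1 CPM in Tie1 Tie2 iΔLEC, against 12 to 92.1 CPM in other wells. Within each plate Net1 was well above the other wells, and the Tie1/-2–deleted plates were again the lowest.

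Others of the 25 encode secreted or membrane proteins. They included the matrix protein Smoc1 (3.92), the secretory kinase Fam20c (3.26), and the proteoglycans Srgn (3.41) and Sdc4 (2.40). The transporters Slc38a11 (3.57) and Slc29a4 (2.88) and the sodium pump subunit Fxyd2 (3.09) were others. Smoc1 was nearly absent from both classes on plate 2 of Tie1 Tie2 fl/fl (0.14 against 0.03 CPM in other wells). The same held on plate 2 of Tie1 Tie2 iΔLEC (0.26 against 0.11 CPM). Metabolic enzymes were Odc1, the rate-limiting enzyme of polyamine synthesis (2.92), and the glycogen phosphorylase Pygm (2.71). Fam20c stood at 520.1 to 998 CPM in the high-scoring wells of the 6 plates in which Tie2 was not deleted and at 209 and 82.6 CPM in the Tie1/-2–deleted plates, against 37.8 to 113 CPM in other wells. The remaining genes were Cldn11, the small GTPase Rasd1 (2.78), Cystm1 (2.72), Ccdc141 (2.68), Apobec2 (2.65), and 3 genes better known from blood cells.

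Those 3 were kindlin-3 (Fermt3, 3.64), Cd79a (3.21), a B cell receptor component, and Cd5 (2.48), a T cell surface protein. Cd79a stood at 63.7 and 69.7 CPM in Tie1 fl/fl, 43.1 and 59.8 CPM in Tie1 iΔLEC, 26.7 and 60.6 CPM in Tie1 Tie2 fl/fl, and 20.4 and 16.5 CPM in Tie1 Tie2 iΔLEC in high-scoring wells. The pan-leukocyte gene Ptprc (CD45), which the sort selected against, had no counts in the high-scoring wells of 7 of 8 plates and 0.281 CPM on the other, and the 4 immune markers summed to 0 to 15.9 CPM, most of it Cd68.

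The 15 genes with the lowest ratios included Cd300lg (-4.08), Fam13c (-4.03), the Wnt and norrin receptor Fzd4 (-3.83), Mmrn2, Mki67, Tmem51 (-3.68), the chemokine scavenger Ackr2 (-3.65), Adamts7 (-3.61), Slco2b1, and P3h3 (-3.58). The others were the matrix protein Npnt (-3.53), the collagen-binding integrin subunit Itga1 (-3.49), Dysf (-3.45), Prr5l (-3.43), and Itih5 (-3.43). All 40 leading genes had the same direction when log2(CPM + 1) was averaged over wells instead of counts being summed. The sizes depended on that choice: the difference became 4.39 for Cldn11 and 4.23 for Net1, but 0.45 for Smoc1, 0.77 for Fermt3, -0.45 for Fam13c, -0.33 for Adamts7, and -0.24 for Npnt.

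Markers of other cell types were low but not absent in the high-scoring wells. The 5 fibroblast markers summed to 59.0 and 44.3 CPM in Tie1 fl/fl, 81.8 and 50.0 CPM in Tie1 iΔLEC, 247.7 and 51.9 CPM in Tie1 Tie2 fl/fl, and 0.687 and 57.6 CPM in Tie1 Tie2 iΔLEC, with Dcn the most abundant. In the other wells of plate 1 of Tie1 Tie2 fl/fl they summed to 402 CPM, so the high value belonged to that plate. Wells with counts of fewer than 2 fibroblast markers numbered 6 of 352 on that plate and 342 of 348 on plate 1 of Tie1 Tie2 iΔLEC, so that low counts of fibroblast genes were spread over nearly all wells of some plates. The blood endothelial markers Sele and Car4 had no counts in high-scoring wells and Ackr1 at most 0.133 CPM, and the 8 blood endothelial markers summed to 67.7 to 401 CPM, mainly the water channel Aqp1, below the other wells on each plate. Mural, keratinocyte, and Schwann cell markers summed to at most 38.4, 106, and 1.05 CPM.

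Among themselves, the high-scoring wells of the control plates differed in Lyve1 and Flt4 by score. Between the 90th and the 95th percentile, Lyve1 stood at 1028 and 458 CPM in Tie1 fl/fl and 422 and 1078 CPM in Tie1 Tie2 fl/fl, and above the 95th percentile at 208, 83.5, 391, and 326 CPM. Flt4 was lower in the upper band on 4 of 4 plates, at 1279, 452, 788, and 1233 CPM below and 561, 165, 488, and 592 CPM above the 95th percentile. Gata2 was 619, 1113, 1134, and 775 CPM in the lower band and 1057, 1275, 1020, and 894 CPM in the upper band, higher on 3 of 4 plates. Nfatc1 went the other way on 4 of 4 plates, at 1562, 1223, 827, and 1066 CPM below and 922, 1038.5, 635, and 1017 CPM above. Foxc2 had no common direction, at 591, 865.5, 439, and 444 CPM below and 545, 707, 729, and 513 CPM above. Thus, wells near the threshold held more Lyve1 and Flt4 on 4 of 4 plates, with Lyve1 nearly level on plate 1 of Tie1 Tie2 fl/fl (422 and 391 CPM). The other capillary genes were not compared between the bands, and no test was made because the score set them.

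The targeted genes were examined first across genotypes. Tie1 stood at 2905 and 3384 CPM in Tie1 fl/fl, 1250.0 and 693 CPM in Tie1 iΔLEC, 3243 and 3094 CPM in Tie1 Tie2 fl/fl, and 953 and 643 CPM in Tie1 Tie2 iΔLEC in the high-scoring wells, and at 2194 and 2558, 566 and 597, 2537 and 2392, and 657 and 449 CPM in the other wells in the same order. Every deleted plate was below every control plate. Tie1 was also higher in high-scoring than in other wells on 8 of 8 plates (median log2 ratio 0.40). In the edgeR quasi-likelihood test over 13924 genes Tie1 had a log2 fold change of -1.78, SE 0.33, adjusted p = 1 for Tie1 deletion and -1.98, SE 0.33, adjusted p = 0.0795 for Tie1/-2 deletion, so neither passed the threshold of 0.05.

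Part of the high-scoring wells of deleted plates still had Tie1 reads. At 500 CPM or more, a level chosen after the values were seen, stood 55 of 57 high-scoring and 504 of 554 other wells of Tie1 fl/fl, and 72 of 73 high-scoring and 576 of 612 other wells of Tie1 Tie2 fl/fl. In Tie1 iΔLEC 25 of 60 (41.7%, exact 95% interval 29.1% to 55.1%) and 16 of 45 high-scoring wells (35.6%, 21.9% to 51.2%) did, compared with 75 of 263 (28.5%, 23.1% to 34.4%) and 97 of 299 other wells (32.4%, 27.2% to 38.1%) of the same plates. In Tie1 Tie2 iΔLEC 15 of 26 (57.7%, 36.9% to 76.6%) and 11 of 20 high-scoring wells (55.0%, 31.5% to 76.9%) did, compared with 124 of 322 (38.5%, 33.2% to 44.1%) and 117 of 333 other wells (35.1%, 30.0% to 40.5%). On each of the 4 deleted plates the intervals of the 2 classes overlapped. With the 2 plates of a genotype pooled, they overlapped in Tie1 iΔLEC (39.0%, 29.7% to 49.1%, against 30.6%, 26.8% to 34.6%). In Tie1 Tie2 iΔLEC they did not (56.5%, 41.1% to 71.1%, against 36.8%, 33.1% to 40.6%). All these intervals cover counting error only and leave out the spread between plates.

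The median of Tie1 per well in Tie1 Tie2 iΔLEC was 756 and 591 CPM in high-scoring and 25.1 and 43.9 CPM in other wells. In Tie1 iΔLEC it was 293 and 4.57 CPM in high-scoring and 112 and 7.43 CPM in other wells, so that the 2 plates did not have the same order of medians. Reads over Tie1 exons outside the floxed part would count as well, and which exons were floxed was not checked here, so these values bound neither the deleted nor the undeleted wells. Tek stood at 173 and 214 CPM in Tie1 fl/fl, 168 and 183 CPM in Tie1 iΔLEC, 207 and 120.5 CPM in Tie1 Tie2 fl/fl, and 42.4 and 162 CPM in Tie1 Tie2 iΔLEC and was scattered over few wells: 13 of 73 high-scoring wells of Tie1 Tie2 fl/fl and 2 of 46 of Tie1 Tie2 iΔLEC had 500 CPM or more. For Tek the log2 fold change came to -0.72, SE 0.60, adjusted p = 0.854 for Tie1/-2 deletion.

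**Figure D3:**
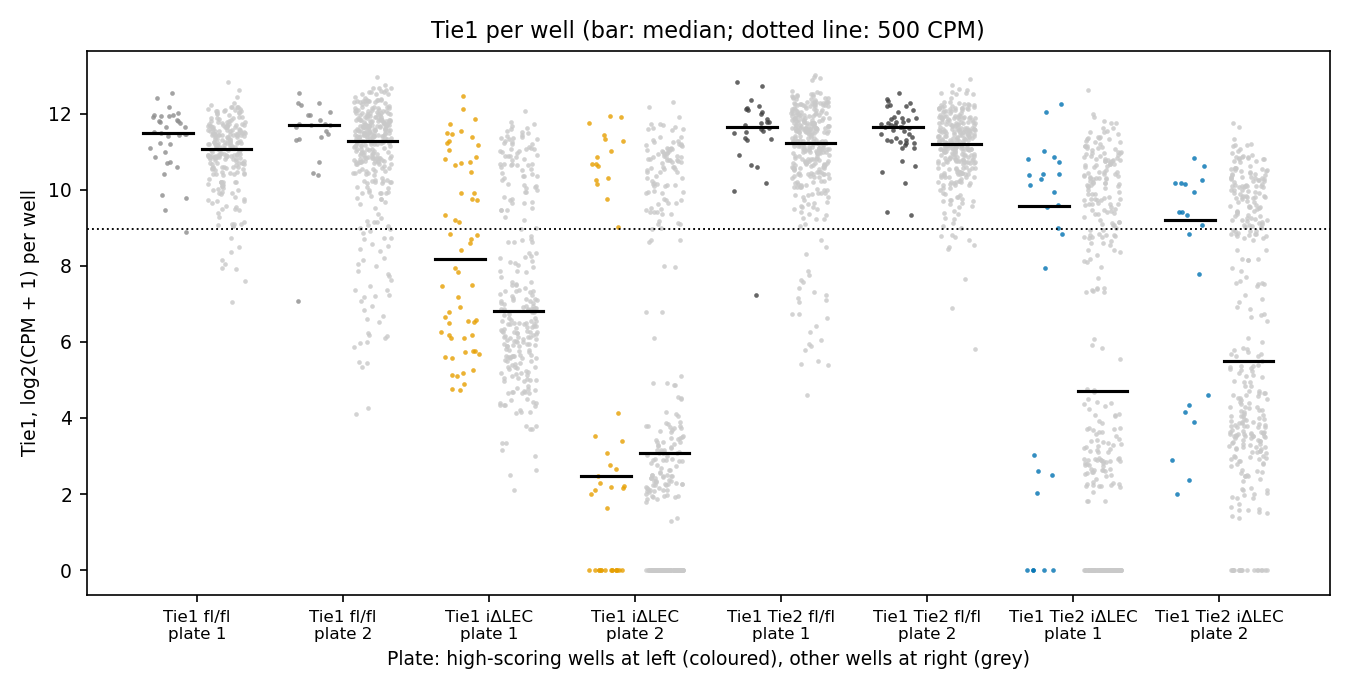
Tie1 in CPM, plotted as log2(CPM + 1), for each passing well of the 8 plates, with high-scoring wells at left and other wells at right, the median as a bar, and 500 CPM as a dotted line. The wells of control plates have medians of 2136 to 3313 CPM with some wells below 500 CPM, whereas a larger part of the wells of deleted plates lies below 500 CPM, with 26 of 46 high-scoring wells at or above it in Tie1 Tie2 iΔLEC.

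Tie1 deletion alone gave no gene past the threshold in the high-scoring wells. The contrast of 60 and 45 deleted wells, summed per plate, with 35 and 22 control wells called 0 of 13924 genes (0.0%) with edgeR, although 520 genes (3.73%) had an unadjusted p under 0.05 and DESeq2 called 96. With 2 plates a group, a count of 0 does not show that no gene changed. The 5 genes with the smallest p, which did not pass, were Tie1, Slco4a1, the scramblase Ano6 (27.8 and 20.6 CPM in controls and 139 and 153 CPM after deletion), the natriuretic peptide receptor Npr2 (149 and 133 and 25.6 and 15.4 CPM), and Zkscan4 (0 and 0 and 31.2 and 10.2 CPM). Angpt2 stood at 1023 and 783 CPM in controls and 1250.2 and 2232 CPM after deletion (log2 fold change 0.90, SE 0.31, adjusted p = 1). Foxc2, Prox1, Gata2, and Cldn11 had log2 fold changes of 0.10, 0.07, -0.53, and -0.22 with SE 0.48, 0.24, 0.33, and 0.29. None of these passed.

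In contrast, 13 genes (0.0934% of 13924) fell with Tie1/-2 deletion and 0 rose, again in high-scoring wells with edgeR, where 1187 genes (8.52%) had an unadjusted p under 0.05. Cldn11 was among them. It stood at 2236 and 1921 CPM in Tie1 Tie2 fl/fl and 489.9 and 428 CPM in Tie1 Tie2 iΔLEC, a log2 fold change of -2.18 (SE 0.30, adjusted p = 0.0267, n = 2 plates each, edgeR quasi-likelihood test with Benjamini-Hochberg adjustment). Also lower in the other wells, Cldn11 had 197 and 175 CPM there in controls and 31.6 and 39.5 CPM after deletion. It was also the gene used above to check the label. The median score of the high-scoring wells was 7.86 in Tie1 Tie2 fl/fl and 6.96 in Tie1 Tie2 iΔLEC. Whether the 13 genes differed within valve cells or through which wells the score chose was not tested.

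Of the other 12 genes, 5 had no counts in the high-scoring wells of either deleted plate. Among them were Hbegf, the heparin-binding EGF-like growth factor (235 and 218 CPM in controls), the metalloprotease Adamts1 (177 and 201 CPM), the tetraspanin Tspan32 (88.3 and 98.7 CPM), and the protein kinase A subunit Prkar1b (107 and 63.4 CPM). In pooled reads, against a floor of 3 counts over the group, these 4 were at least 1016-, 875-, 432-, and 357-fold lower. These limits treat reads as independent and leave out the spread between wells and plates, so they do not bound the change in cells. The adjusted p by edgeR were 0.00863, 0.00135, 0.0119, and 0.00984 in the same order. In the Tie1 iΔLEC plates the same 4 genes stood at 251 and 73.4, 173 and 137, 54.4 and 63.5, and 127 and 59.2 CPM. They were found in part of the control wells only, for example Adamts1 in 40 of 73 and Hbegf in 36 of 73 high-scoring wells of Tie1 Tie2 fl/fl.

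The cartilage oligomeric matrix protein gene Comp (chr8:70373558-70382066, plus strand) had 354 and 344 CPM in Tie1 fl/fl, 439 and 359 CPM in Tie1 iΔLEC, 236 and 339 CPM in Tie1 Tie2 fl/fl, and 0 and 0.128 CPM in Tie1 Tie2 iΔLEC. A single count remained in the deleted plates, a level 4124-fold lower (counting interval 740 to 162900; adjusted p = 0.000175 by edgeR). Comp was detected in 72 of 73 control and 1 of 46 deleted high-scoring wells. Igfbp5, an insulin-like growth factor binding protein, had 329.8 and 389 CPM in Tie1 fl/fl, 121 and 258 CPM in Tie1 iΔLEC, 327 and 435 CPM in Tie1 Tie2 fl/fl, and 0 and 0.257 CPM in Tie1 Tie2 iΔLEC, with 2 counts after Tie1/-2 deletion, 2704-fold lower (748 to 22334; adjusted p = 0.000618 by edgeR). Both counting intervals are of pooled reads and leave out the spread between wells and plates. With 2 plates a genotype and the number of mice not given, a property shared by both deleted plates cannot be told apart from the deletion.

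Several of these genes also had lower values in the other wells of the same plates, where no test was run. There, Comp stood at 417 and 455 CPM in Tie1 Tie2 fl/fl and 5.64 and 10.2 CPM in Tie1 Tie2 iΔLEC, Igfbp5 at 471 and 508 and 8.05 and 2.8 CPM, and Prkar1b at 279 and 218 and 0.0308 and 0.039 CPM. Tspan32 differed, with 1.54 and 6.22 CPM in controls and 7.17 and 3.7 CPM after deletion in the other wells. The interaction of class and deletion did not pass for these genes (adjusted p by edgeR of 0.131 for Comp and 0.176 for Tspan32, and 0.0526 for Adamts1).

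The remaining 5 genes were lower but present. Cystm1 stood at 221 and 159 CPM in controls and 6.01 and 4.75 CPM after deletion (log2 fold change -5.14), Smtnl2, a smoothelin-like protein, at 187 and 186 and 10.8 and 7.7 CPM (-4.32), and the mitochondrial carrier Ucp2 at 411 and 516 and 42.9 and 44.8 CPM (-3.40). Slc29a4, the plasma membrane monoamine transporter, stood at 578 and 664 and 40.2 and 83.2 CPM (-3.35), and Net1 at 1046 and 1109 and 129 and 84.1 CPM (-3.32). The SEs ranged from 0.35 to 0.67 and the edgeR adjusted p from 0.00529 to 0.0253. Cldn11, Net1, Slc29a4, and Cystm1, 4 of the 13, were also among the 25 leading genes of high-scoring over other wells. Of all 10150 genes compared, 117 (1.15%) were at least 2-fold higher there and higher on 8 of 8 plates. The overlap was not tested, since the score chose the wells.

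**Figure D4:**
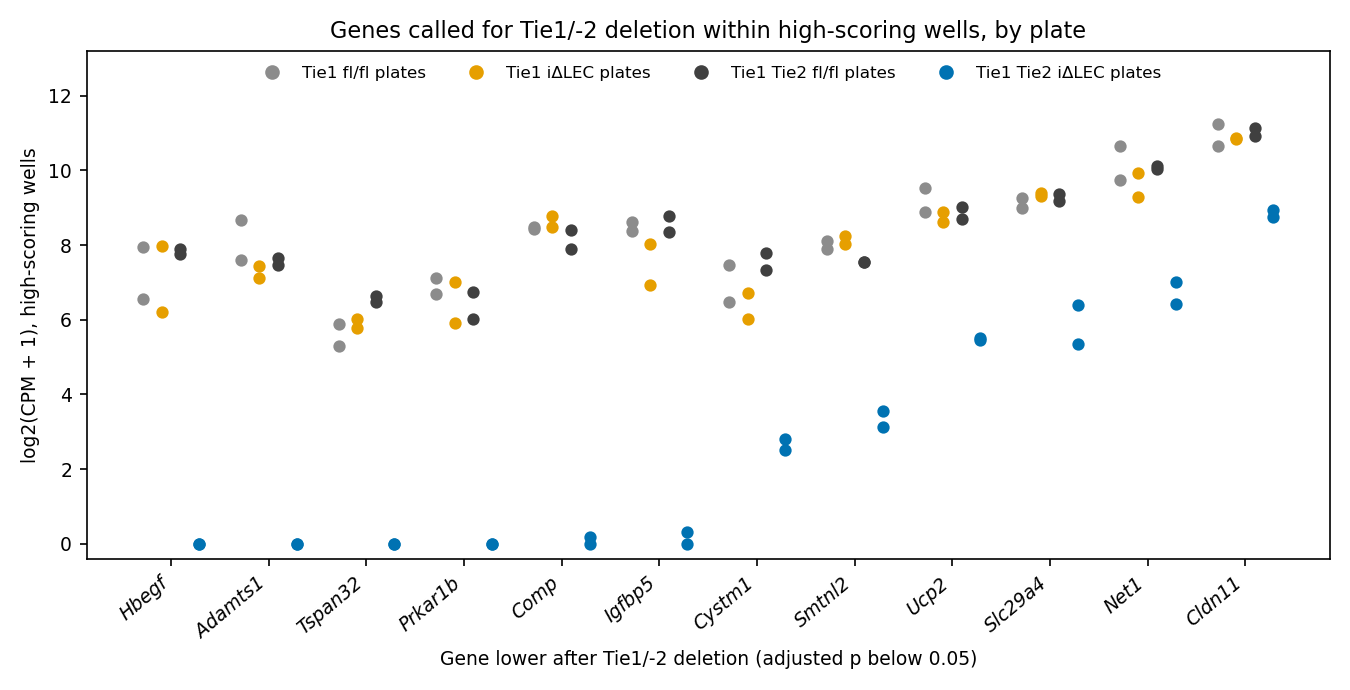
Level of 12 of the 13 genes that fell with Tie1/-2 deletion in the high-scoring wells of each of the 8 plates, in CPM plotted as log2(CPM + 1). The 2 Tie1 Tie2 iΔLEC plates lie below the other 6 plates for all 12 genes shown, at 0 for 4 of them, whereas all 12 have counts on both Tie1 iΔLEC plates.

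The 13 calls depended on which wells were taken. They also depended on single plates of the strain: Cldn11, Net1, Cystm1, Tspan32, Slc29a4, Hbegf, Prkar1b, and Smtnl2 each missed the threshold with at least 1 plate left out. With the 80th percentile as threshold 1 gene passed, and with wells that had counts of 2 or more fibroblast markers left out, which kept 82 of the 281 wells, 0 passed. With no filter on low counts 207 passed, 164 lower and 43 higher, and DESeq2 called 493, 382 lower and 111 higher. The 6 dissociation stress genes, with Jun the most abundant, summed to 763 and 639 CPM in Tie1 Tie2 fl/fl and 347 and 200 CPM in Tie1 Tie2 iΔLEC high-scoring wells. Their part in the result was not tested.

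The effect of Tie1/-2 deletion was compared with that of Tie1 deletion as an interaction. For 8 genes (0.0575%) the change with Tie1/-2 deletion was more negative than that with Tie1 deletion, and 1045 (7.51%) had an unadjusted p under 0.05. They included Comp, Igfbp5, Adamts1, Hbegf, Tspan32, Prkar1b, and Smtnl2, and all 8 were among the 13. For Smtnl2 the difference was -4.40 (SE 0.60, adjusted p = 0.0421, edgeR), and for Comp the adjusted p was 0.000565. Cldn11 did not pass (-1.96, SE 0.41, adjusted p = 0.427). The 2 deletions were made in different floxed strains with their own controls, and strain was part of the comparison. Prkar1b, Tspan32, and Smtnl2 lost their calls whichever of the 8 plates was left out. Fewer genes passed with the table layout as a term, which sets a control plate beside a deleted plate in each strain.

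Several other valve genes had lower values in Tie1 Tie2 iΔLEC but did not pass. Of the 10 valve transcription factors tested, 0 passed, the median log2 fold change was -0.75 against -0.05 for all genes, and 5 of 10 had both deleted plates below both control plates, as 21.6% of all genes did. Gata2 stood at 1061 and 853 and 355 and 255 CPM (-1.64, SE 0.34, adjusted p = 0.165, edgeR). Foxc2 stood at 624 and 489 and 321 and 112 CPM (-1.34, SE 0.49, adjusted p = 0.54), and Prox1 at 1933 and 1961 and 1039.6 and 1199 CPM (-0.80, SE 0.24, adjusted p = 0.423). Foxc2 had counts in 72 of 73 control and 19 of 46 deleted high-scoring wells. The log2 fold change of Lama5 was -3.38, SE 0.75, adjusted p = 0.198, and that of Klf2 was -1.76, SE 0.54, adjusted p = 0.437 (edgeR). The other valve lists were mixed. The matrix and integrin list had 2 genes with both deleted plates above both controls and 4 below (median -0.58). For the junction and polarity list these were 2 and 3 (-0.17), and for BMP and ALK1 2 and 2 (0.32). The guidance and ephrin list had a median of -0.22 and the Notch list 0.07. Of all genes, 14.3% lay above in this way.

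Most capillary genes had higher values after Tie1/-2 deletion, without passing the test. Of 7 capillary genes tested, 0 passed, the median log2 fold change was 1.07, and 5 of 7 had both deleted plates above both controls, as 14.3% of all genes did. The microtubule-associated Tppp3 lay below both, at 124 and 176 CPM in controls and 98.7 and 24.2 CPM after deletion. Lyve1 stood at 402 and 586 CPM and 2264 and 2143 CPM (2.17, SE 0.33, adjusted p = 0.0558, edgeR), and the median high-scoring well had 130.2 CPM in controls and 2006 CPM after deletion. In the control plates, high-scoring wells above the 95th percentile of the score held less Lyve1 than those below it. Above that percentile lay 16 of 28 and 26 of 45 high-scoring wells of Tie1 Tie2 fl/fl. In Tie1 Tie2 iΔLEC 10 of 26 and 3 of 20 did. The part of this difference in score in the higher capillary genes was not tested. The pan-LEC gene Mmrn1 stood at 1096 and 1009.6 and 1909 and 2297 CPM, with a log2 fold change of 0.99, SE 0.23, adjusted p = 0.215 by edgeR. Lyve1 passed when 1 of the 4 plates of the Tie1 strain was left out (adjusted p between 0.0253 and 0.0420), but not when 1 of the 4 Tie1 Tie2 plates was (0.0853 to 0.331). Of 7 collecting vessel genes tested, 0 passed, and the median log2 fold change was -0.92. Among them 1 (Plvap, 344 and 497 CPM in controls and 1294 and 1074 CPM after deletion) had both deleted plates above both controls. Another 4 had both below, as 21.6% of all genes did.

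Angpt2 was higher in high-scoring than in other wells on 8 of 8 plates (median log2 ratio 1.45) and was highest in the Tie1/-2–deleted plates. It stood at 1023 and 783 CPM in Tie1 fl/fl, 1250.2 and 2232 CPM in Tie1 iΔLEC, 926 and 1254 CPM in Tie1 Tie2 fl/fl, and 4486 and 3782 CPM in Tie1 Tie2 iΔLEC in the high-scoring wells, and at 192 and 375 and 2805 and 2553 CPM in the other wells of Tie1 Tie2 fl/fl and of Tie1 Tie2 iΔLEC. Its log2 fold change in high-scoring wells was 1.94, SE 0.32, adjusted p = 0.0765 (edgeR), which did not pass. At 100 CPM or more stood 46 of 46 deleted and 59 of 73 control high-scoring wells. When plate 1 or plate 2 of Tie1 iΔLEC was left out the adjusted p was 0.0203 or 0.0212, and over all left-out plates it reached 0.408. Flt4 stood at 597 and 815 and 811 and 944 CPM (log2 fold change 0.32, SE 0.36, adjusted p = 0.935).

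The average of both deletions, with strain as a term, called 0 genes (0.0%), and 749 (5.38%) had an unadjusted p under 0.05. DESeq2 called 164. Tie1 (-1.88, SE 0.23, adjusted p = 0.109, edgeR) and Angpt2 (1.42, SE 0.28, adjusted p = 0.92) were among the 5 genes with the smallest p, with the matrix genes Tnc (1.79 and 0.436 and 0.399 and 1.94 CPM in controls, 28 and 10.4 and 171 and 140.3 CPM after deletion) and Ccn2 (12 and 2.18 and 2.79 and 12.6 CPM, 55.8 and 54.2 and 355 and 543 CPM). Slco4a1, an organic anion transporter, had no counts in the high-scoring wells of the 4 control plates and 12.8 and 18.9 CPM in Tie1 iΔLEC and 159 and 77.5 CPM in Tie1 Tie2 iΔLEC, at least 96.8- and 802-fold higher against a floor of 3 counts over the group. These limits are of pooled reads and leave out the spread between wells and plates. The adjusted p of Slco4a1 was 0.149 by edgeR.

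Whether a deletion acted differently on high-scoring and on other wells was tested in a fit of 19379 genes with the plate as a block. For Tie1 deletion 0 genes passed (0.0%), with 665 (3.43%) at an unadjusted p under 0.05 and 173 called by DESeq2. The genes with the smallest p included Slc25a25 (interaction 4.43), Ano6 (2.30), Zkscan8 (6.03), and Numa1 (2.17), each with an adjusted p of 1. For Tie1/-2 deletion 1 gene passed (0.00516%), fibronectin, with 1041 (5.37%) at an unadjusted p under 0.05. Fn1 (chr1:71585520-71653200, minus strand) stood at 2415 and 2218 CPM in Tie1 fl/fl, 3058 and 3348 CPM in Tie1 iΔLEC, 2516 and 2681 CPM in Tie1 Tie2 fl/fl, and 2782 and 3091 CPM in Tie1 Tie2 iΔLEC in high-scoring wells. In the other wells it stood at 896 and 803, 1392 and 1369, 854 and 773, and 3392 and 3290.4 CPM in the same order. The high-scoring wells were thus above the other wells on the 6 plates in which Tie2 was not deleted and below them on both Tie1/-2–deleted plates.

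The interaction was -1.92 on the log2 scale (SE 0.13, adjusted p = 0.00332, edgeR), while within the high-scoring wells Fn1 had a log2 fold change of 0.18, SE 0.19, adjusted p = 0.927. Fn1 was found in most wells: in Tie1 Tie2 iΔLEC 44 of 46 high-scoring and 650 of 655 other wells had 100 CPM or more, compared with 73 of 73 and 478 of 612 in Tie1 Tie2 fl/fl. The call held in each of the 5 alternatives run for this comparison and without any 1 of the 8 plates. A set of 2 plates a genotype and 46 deleted wells was behind it. Prox1, with an interaction of -1.13 (SE 0.19), did not pass (adjusted p = 0.259). Prox1 in the other wells stood at 735 and 646 and 844 and 826 CPM.

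**Figure D5:**
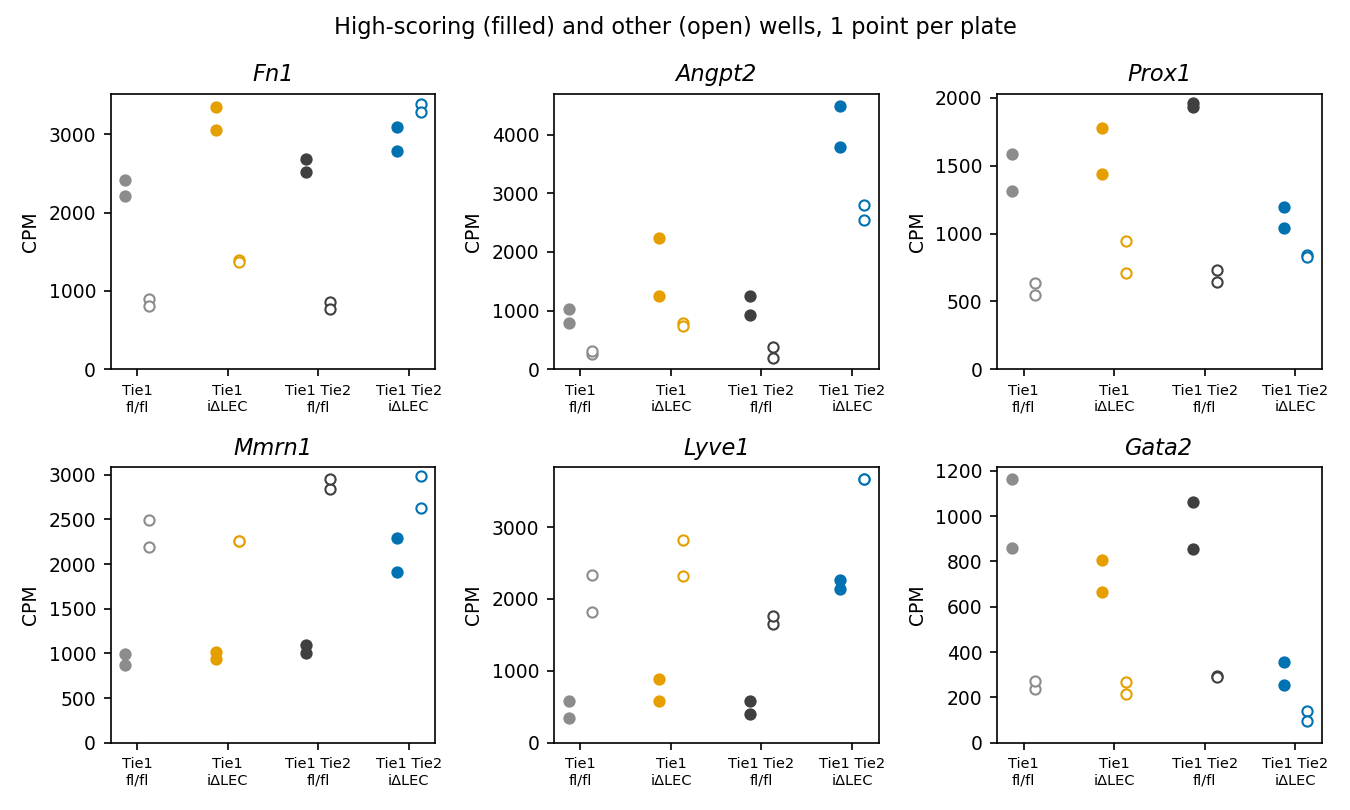
Level in CPM on a linear axis of 6 genes in the high-scoring (filled) and the other wells (open) by genotype, 1 point per plate and class. Fn1 ranged from 2218 to 3348 CPM in the high-scoring wells and went from 773 and 854 CPM in the other wells of Tie1 Tie2 fl/fl to 3290.4 and 3392 CPM in those of Tie1 Tie2 iΔLEC, whereas Lyve1 and Angpt2 were highest in Tie1 Tie2 iΔLEC in both classes.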

How the data were processed

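The authors deposited 1 table of counts per plate for single cells sorted 1 to a well and sequenced by Smart-seq2. The submitters' processing notes name TopHat2 2.1.1, SAMtools 0.1.18, featureCounts of the Subread package, and the build GRCm38 (mm10), with no role for each, and the column names say that duplicates were removed. Strand use in counting was not given in the sources used here. The counts were used as deposited, without rounding or normalization. The droplet libraries of the series were not used here.

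Of the 46517 gene rows in a table, 42518 genes could be joined between the symbol and Ensembl layouts (41739 by symbol and 779 by an older symbol), and these held 95.6% to 96.7% of the counts of a plate. The 94 rows for spike-in controls, found in the Ensembl tables and at 0.0832% to 0.158% of counts there, were left out. No doublet caller was run, since cells were sorted singly. Hjv, a listed neogenin coreceptor gene, was not matched. Coordinates are those of the annotation of GRCm38.

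Counts of the high-scoring wells were summed per plate (5576367 to 13674303 counts), so that the plate was the replicate. The 8 sums entered 1 fit in edgeR 4.0.16 (R 4.3.3) with TMM factors of 0.901 to 1.05, the filterByExpr filter, and the quasi-likelihood test, with Benjamini-Hochberg adjustment over all genes tested and a threshold of 0.05. The interaction of class and deletion was fitted on 16 sums with the plate as a block. A pseudocount of 1 CPM was added before log2. A floor of 3 counts over the group stood for a group with no counts. Fold limits and counting intervals were computed on reads pooled over the wells of a group. Member shares and ratios of high-scoring to other wells were not tested.

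The alternatives were RLE factors, no filter on low counts, DESeq2 1.42.0, the table layout as a term, the strain alone, other score thresholds, depths, and score genes, wells with fibroblast or Tie1 counts left out, and each plate left out in turn. The members, the gene lists, and the tests were chosen with earlier results of these data known. Named genes were those of the lists, the 25 highest and 15 lowest median ratios on 8 of 8 plates at a mean of at least 10 CPM with the score genes left out, up to 10 of the largest falls and rises among genes that passed, had a mean of at least 10 CPM, and did not overlap, and the 5 genes with the smallest p where fewer than 5 passed. Genes counted by their values in wells, the wells with Tie1 at 500 CPM or more, and the remaining genes of the 13 were named after their values were seen. Some genes are not reported here.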

Additional observations from a re-analysis of the deposited data

Results flagged for a closer look

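In the high-scoring wells, 7 genes described here were picked out because the edgeR test of the difference between the effect of Tie1/-2 deletion and that of Tie1 deletion passed the threshold. Their fitted differences on the log2 scale were -12.81 for Adamts1, -11.85 for Comp, -13.94 for Hbegf, -10.28 for Igfbp5, -12.27 for Prkar1b, -13.11 for Tspan32, and -4.40 for Smtnl2. For the 6 genes other than Smtnl2 the Tie1/-2–deleted plates held at most 2 counts, so these fitted values depend on the prior count of the fit and are no bound on the change. Comp, Igfbp5, and Adamts1 passed without any 1 of the 8 plates, Hbegf passed without 2 of them in turn, and Prkar1b, Tspan32, and Smtnl2 kept their calls without 0 of 8. Fn1 was picked out by the test of whether Tie1/-2 deletion acted differently on high-scoring and on other wells, with a difference of -1.92 on the log2 scale.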

How the results depend on the processing

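The difference in share (deleted minus control, main value 6.14 percentage points for Tie1 and -4.17 for Tie1/-2) was 15.8 and -0.10 with the 80th percentile and 12.3 and -10.5 with wells of 2 or more fibroblast markers left out, and ranged from 2.91 to 9.36 and from -6.95 to -1.39 with each plate left out. The genes at least 2-fold higher numbered 24 with those wells left out and 122 to 160 with a plate left out, and those lower 121 by the mean log2(CPM + 1) over wells and 351 to 420. With no filter, DESeq2, and the 95th percentile, Tie1/-2 deletion called 207, 493, and 6 genes, the difference between deletions 103, 241, and 2, the average 81, 164, and 1, and the interaction of class and Tie1/-2 deletion 13, 415, and 5. Tie1 deletion called 3 with no filter and 96 with DESeq2, and its class interaction 173 with DESeq2. The 80th percentile gave 1 and 0 calls for Tie1/-2 deletion and for the difference, leaving out wells with 2 or more fibroblast markers (82 of 281 wells kept) 0 and 1, and leaving out Cre-positive wells with 500 CPM or more of Tie1 20 and 4. The strain alone gave 3 for Tie1/-2 deletion. The table layout as a term gave 4 and leaving out wells with 200 CPM or more of fibroblast markers 5 for the difference. RLE factors and thinned wells each gave 2 for the class interaction of Tie1/-2 deletion. The 500 and 200 CPM limits were chosen after seeing the data. With a plate left out, the calls ranged from 9 to 27 for Tie1/-2 deletion (20 without either Tie1 fl/fl plate and 27 without plate 1 of Tie1 Tie2 iΔLEC), 4 to 9 for the difference, 0 to 0 for Tie1 deletion and the average, 0 to 4 for the class interaction of Tie1 (4 without plate 1 of Tie1 fl/fl), and 1 to 4 for that of Tie1/-2 (2 and 4 without plates 1 and 2 of Tie1 Tie2 iΔLEC). Cldn11 and Net1 lost their calls without either Tie1 Tie2 fl/fl plate or plate 2 of Tie1 Tie2 iΔLEC (edgeR adjusted p 0.0634 to 0.144), and Cystm1 without any of the 4 Tie1 Tie2 plates (0.0676 to 0.144). Tspan32 (0.0578) and Slc29a4 (0.0518) lost theirs without plate 2 of Tie1 Tie2 fl/fl, and Tspan32 (0.0529), Hbegf (0.0528), Prkar1b (0.0528), and Smtnl2 (0.0501) without plate 2 of Tie1 Tie2 iΔLEC. The causes of these shifts were not tested.

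Of 1304 single-gene results under alternatives, 1076 kept direction and side of the threshold, 130 no longer passed, 91 newly passed, and 7 turned direction, none of the latter a call. These were Cldn11 with Tie1 deletion without plate 2 of Tie1 fl/fl (0.21, against -0.55 without plate 1), Itga9 (0.33) and Tek (1.00) with Tie1/-2 deletion and fibroblast-marker wells left out, Nfatc1 with Tie1/-2 deletion at the 95th percentile (0.14) and without plate 2 of Tie1 Tie2 fl/fl (0.12) or of Tie1 Tie2 iΔLEC (0.26, against -0.85 without plate 1 of the latter), and the class interaction of Serpine2 at the 95th percentile (-0.14). The sample titles share numbers only in the Tie1 strain (2 pairs), where same-numbered plates deviated with r = 0.0629 across 13924 genes. These plates also shared the sex label and the table layout and had adjacent plate ids. No source says that a number marks a pair, so the main fit did not pair them. With the replicate block 0 genes passed for Tie1 deletion and 0 for the average. The table layout as a term, which sets 1 control beside 1 deleted plate in each strain, gave 15 calls for Tie1/-2 deletion. Leaving out Cre-positive wells with Tie1 above 1 CPM was not run, since 2 deleted plates would keep 0 wells.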

Other observations

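Genes of the angiopoietin, PI3K, and VEGF-C pathways were measured in the high-scoring wells as well. Of 6 angiopoietin and Tie genes, Tie1 and Angpt2 were higher than in the other wells on 8 of 8 plates and 0 were lower, and the list median of the log2 ratio was 0.19. Of the 4 tested with Tie1/-2 deletion 0 passed; these include both deleted genes, Tie1 (-1.98) and Tek (-0.72), and Angpt2, which had the opposite sign (1.94). The receptor phosphatase Ptprb, which acts on Tie2, stood at 318 and 109 CPM in Tie1 fl/fl, 368 and 278 CPM in Tie1 iΔLEC, 463 and 306 CPM in Tie1 Tie2 fl/fl, and 232 and 341 CPM in Tie1 Tie2 iΔLEC, with overlapping groups. The ligands Angpt1 and Angpt4 had at most 2.24 and 3.19 CPM.

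Of 10 PI3K and FoxO genes, 0 were higher and 1 lower on 8 of 8 plates (median -0.58), and of 9 tested with Tie1/-2 deletion 0 passed (median -0.07). The most abundant, the kinase Akt1, stood at 127 to 283 CPM. Of 7 VEGF-C and VEGFR3 genes, 0 were higher and 2 lower on 8 of 8 plates (median -0.52), and of 4 tested 0 passed. Vegfc, the ligand, had at most 0.266 CPM in the high-scoring wells.

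The listed genes Thbs1, Pdgfb, and Cd36 had higher values in the high-scoring wells of Tie1 Tie2 iΔLEC. Of 3 tested, 0 passed, the median log2 fold change was 5.73, and 3 of 3 had both deleted plates above both controls, as 14.3% of all genes did. The platelet-derived growth factor gene Pdgfb stood at 0.931 and 7.32 CPM in Tie1 Tie2 fl/fl and 274 and 158 CPM in Tie1 Tie2 iΔLEC, and the fatty acid transporter Cd36 at 0.133 and 0.574 CPM and 78.5 and 199 CPM. In the other wells Cd36 stood at 10.1 and 18.2 CPM and 124 and 202 CPM.

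The interaction of class and Tie1/-2 deletion had its next smallest p for Adamts1, Comp, and the genes Cp and Serpine2, none of which passed. The ferroxidase ceruloplasmin (Cp) stood at 139 and 167 CPM in Tie1 Tie2 fl/fl and 380.4 and 777 CPM in Tie1 Tie2 iΔLEC in the high-scoring wells, and at 408 and 507 CPM and 273 and 515 CPM in the other wells (interaction 2.06, SE 0.25, adjusted p = 0.107, edgeR). The protease inhibitor Serpine2 stood at 155 and 197 CPM and 563 and 454 CPM in the high-scoring wells, and at 425 and 524 CPM and 208 and 268 CPM in the other wells (2.48, SE 0.31, adjusted p = 0.107, edgeR), an interaction that was -0.14 with the 95th percentile as threshold. Both were above the controls in high-scoring wells, and Serpine2 was below them in the other wells.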
